A study of Homo sapiens with 18 samples.

Results

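ATF4 is the transcription factor at the centre of the integrated stress response, and the 9 genes described here are ATF4 itself and 8 genes of its response: ATF3, DDIT3, TRIB3, ASNS, CHAC1, PSAT1, DDIT4 and SESN2. They were taken by symbol from a list proposed with earlier results of these data known, and made up 9 of the 54425 genes in a table of ATAC-seq counts per gene. All 9 passed the filter on low counts and were among the 17660 genes tested. ATAC-seq marks DNA that a transposase can reach, so each value is the read count over a gene, a measure of open chromatin and not of RNA or protein. In bulk libraries a gene open in fewer cells and a gene less open in every cell cannot be told apart.

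The cells were HEK293T, a human embryonic kidney line, carrying the fusion proteins of the t(4;11) translocation of acute leukemia, which joins MLL (KMT2A) to AF4 (AFF1). MLL-AF4 cells held an inducible MLL-AF4, AF4-MLL cells an inducible AF4-MLL, and co-expression cells a constitutive MLL-AF4 together with an inducible AF4-MLL. Libraries came from days 3 and 28, 3 for each setting and day and 18 in all, and the labels give doxycycline at 1 µg/ml for 48 h as the induction in all of them. Cells without a fusion were not analysed here, so the fusion settings were compared with each other and day 28 with day 3. The study's methods describe drug-selected pools made with Sleeping Beauty vectors. In co-expression cells the AF4-MLL plasmid was brought in transiently and, once selection and doxycycline had ended, was lost, so the day 28 libraries of that setting come from cells that had carried AF4-MLL for a short time. The single fusions were likewise induced for 48 h and then shut down. On day 28 MLL-AF4 and AF4-MLL cells thus had their fusion switched off, while MLL-AF4 in co-expression cells was constitutive. The day 28 comparisons are between cells in these states. The methods speak of 3 biological replicates. Neither they nor the labels say whether the libraries of a group came from separately transfected or separately grown cultures, so p-values measure only the spread between these libraries.

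In the integrated stress response, kinases that sense amino acid shortage, unfolded protein, heme shortage or double-stranded RNA phosphorylate the translation factor eIF2, which lowers protein synthesis as a whole while the ATF4 mRNA is translated more. ATF4 then pairs with other bZIP factors, binds a response element in its target genes and turns on amino acid synthesis and transport, feedback regulators and, under lasting stress, genes linked to cell death. Control of ATF4 itself is largely at translation, a step that a chromatin assay does not read.

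The response element shared by ATF4 and C/EBP factors is written TGATGNAA. It was searched on both strands in RefSeq promoter windows of GRCh38.p14, which reach from 250 bases before to 50 bases after each annotated start. All 9 genes had at least 1 of 15 windows, and a match was present for 3 of the 9: ATF3, ASNS and CHAC1. Over all 34796 distinct windows of this length 3.63% held a match, and of 27305 genes 4.46% had one in any window. The 3 matches are shown 5′ to 3′ on the strand of the gene with 10 bases on each side and the match in capitals. They lie at chr1:212565206-212565233 on the plus strand (ATF3, starting 191 bases before the transcript start), chr7:97872459-97872486 on the minus strand (ASNS, 68 bases before) and chr15:40953252-40953279 on the plus strand (CHAC1, 209 bases before, read as the reverse complement).
ATF3: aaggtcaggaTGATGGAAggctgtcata
ASNS: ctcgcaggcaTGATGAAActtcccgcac
CHAC1: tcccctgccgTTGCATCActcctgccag
A match describes the letters in the window and is not evidence that a factor was bound, and absence of a match says only that these letters are not in the window.

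ATF3 and ATF4 were the members that passed the test in a comparison, so 250 bases before a start of each are printed. The ATF3 stretch holds the element and the ATF4 stretch does not, and the window of a second annotated ATF3 start, chr1:212614768-212615067, has no match either. The ATF4 stretch is chr22:39520309-39520558 and the ATF3 stretch is chr1:212565157-212565406, both on the plus strand of GRCh38.p14. The GC content of the whole 300-base window was 57.3% for ATF4 and 48.0% for ATF3.
ATF4: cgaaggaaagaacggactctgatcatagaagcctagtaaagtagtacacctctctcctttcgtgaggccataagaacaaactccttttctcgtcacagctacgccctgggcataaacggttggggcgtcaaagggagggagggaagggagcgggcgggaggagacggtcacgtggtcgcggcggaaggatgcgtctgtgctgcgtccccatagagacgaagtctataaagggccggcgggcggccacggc
ATF3: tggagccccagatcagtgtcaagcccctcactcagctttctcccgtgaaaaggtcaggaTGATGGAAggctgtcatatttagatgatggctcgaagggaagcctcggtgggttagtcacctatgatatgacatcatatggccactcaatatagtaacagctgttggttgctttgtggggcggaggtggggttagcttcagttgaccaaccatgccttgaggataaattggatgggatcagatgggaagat

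Libraries held from 442159 to 3539937 counts (median 1254820), and the mitochondrial share was 32.7% to 45.6% on day 3 and 63.6% to 68.5% on day 28. The count of 1 member in 1 library ran from 3 to 102 (median 30.5), so counting error alone was large where counts were few. Values below are CPM, the count of a gene divided by its TMM-scaled library size and multiplied by 1e+06, given as mean ± SD with n = 3, and differences are on the log2 scale from edgeR's quasi-likelihood fit to all 18 libraries with their standard error (SE). Called means a Benjamini-Hochberg adjusted p under 0.05 over all tested genes, and the share of all tested genes that met a rule is given beside the members' counts as background. KMT2A, whose exons the fusion constructs carry in part, had its lowest values in MLL-AF4 cells (27.7 to 47.0 CPM) and its highest in AF4-MLL cells (83.0 to 108 CPM). Co-expression cells held 47.3 to 57.4 CPM on day 3 and 59.8 to 79.9 CPM on day 28. Their day 28 values were the higher although the AF4-MLL plasmid is described as lost by then, and the reason was not tested. HEK293T marker genes (7, of renal and neuronal progenitors) and 9 markers of other cell types both had counts: the summed CPM of the former, here over the unscaled library total with its mitochondrial counts, was 134 to 213 on day 3 and 60.4 to 96.2 on day 28, and that of the latter 124 to 166 and 62.5 to 77.8. With TMM scaling the median log2 day difference of the 6 tested HEK293T markers was 0.10, 0.08 and −0.05 in MLL-AF4, AF4-MLL and co-expression cells. For the 6 tested markers of other cell types it was −0.08, 0.14 and −0.14, and 0 of either list were called over time. CD3E, HBB and ALB were each at 0 in at least 1 library, while PTPRC and APOA1 had counts in all 18, so these counts do not tell cell types apart. The part of these series-wide differences in the results below was not tested.

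**Figure D1:**
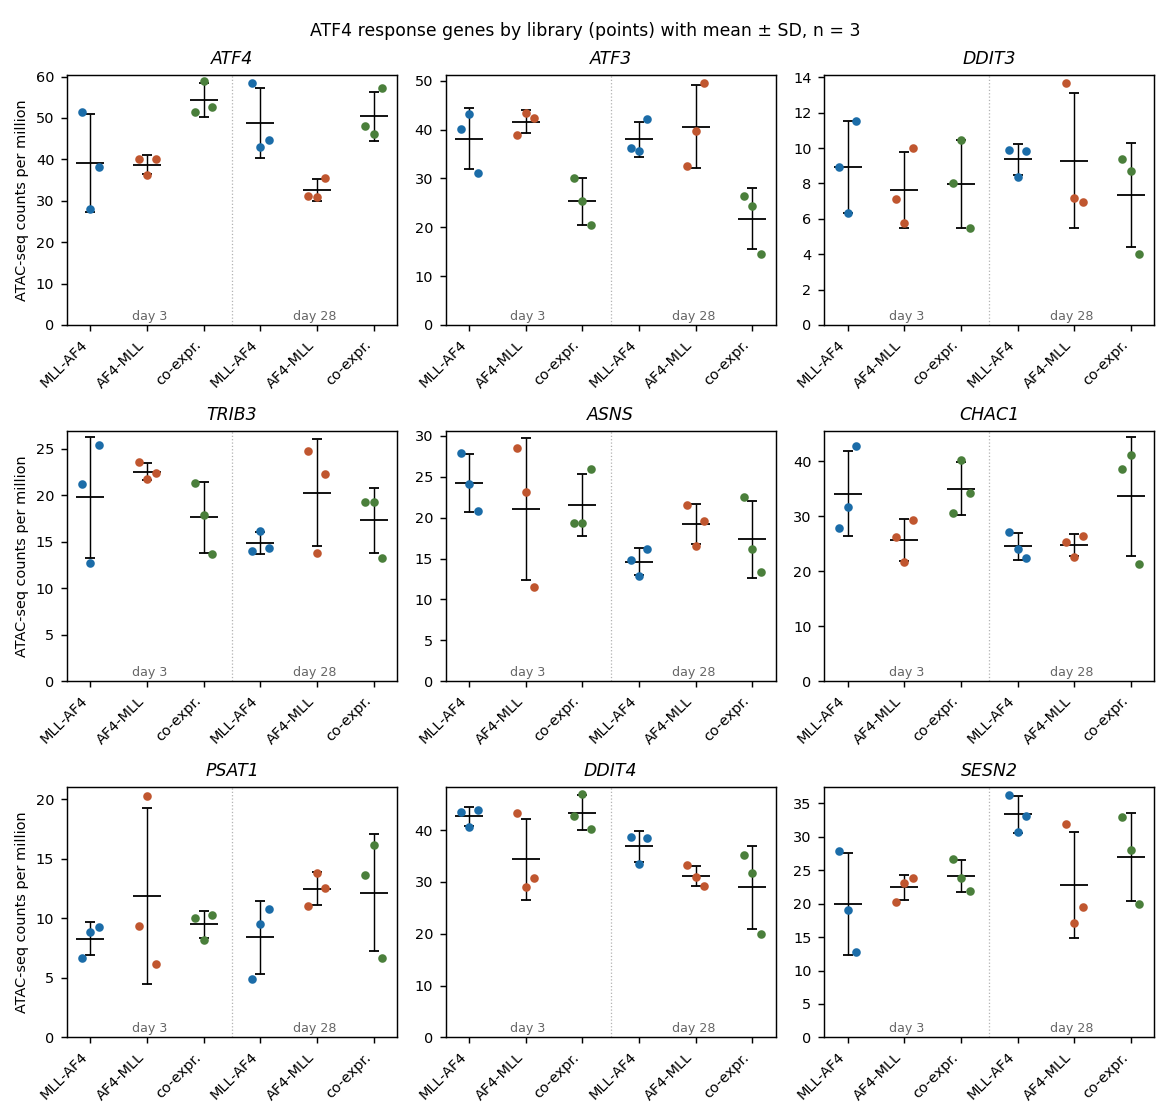
ATAC-seq CPM of the 9 genes in each of the 18 libraries (points, coloured by fusion setting), with the mean and SD of the 3 libraries of a group as a bar and whiskers; day 3 is left and day 28 right of the dotted line, and each panel has its own axis from 0. ATF3 sits lowest in the co-expression groups on both days (25.3 ± 4.75 and 21.7 ± 6.25 CPM), and ATF4 lowest in AF4-MLL cells on day 28 (32.6 ± 2.59 CPM).

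ATF3, a bZIP factor induced by stress that forms dimers with JUN and related proteins, was called lower in co-expression cells than in AF4-MLL cells on both sampling days and than in MLL-AF4 cells on day 28. It lies on chromosome 1 at 212565407 to 212620777 (RefSeq, GRCh38.p14). On day 3 the co-expression libraries held 29.996, 25.4 and 20.5 CPM, the AF4-MLL libraries 38.9, 43.4 and 42.4 CPM and the MLL-AF4 libraries 40.2, 43.1 and 31.2 CPM. All 3 co-expression values were below all 6 others. On day 28 the co-expression libraries held 26.3, 24.3 and 14.6 CPM, against 32.6, 39.8 and 49.5 CPM in AF4-MLL cells and 36.3, 35.7 and 42.1 CPM in MLL-AF4 cells. The co-expression group was again below all 6 others, and its replicate 3 rested on only 11 counts.

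Against AF4-MLL cells on day 3, ATF3 was called lower, with a log2 difference of −0.69 (SE 0.19, 95% interval −1.07 to −0.32, edgeR adjusted p = 0.0312), a fold of 0.619. It was the only one of the 9 members called there, 1 of 9 against 1.28% of all tested genes. Against MLL-AF4 cells on day 28 it was also called lower, at −0.68 (SE 0.19, edgeR adjusted p = 0.0434), again the 1 member of 9, with a background of 1.17%. The difference from AF4-MLL cells on day 28 was −0.78 (SE 0.18, 95% interval −1.14 to −0.42, edgeR adjusted p = 0.00605). In that comparison 2 of 9 members were called, ATF3 and ATF4, against 1.69% of tested genes. On day 3 against MLL-AF4 cells the groups did not overlap either, but the difference of −0.59 (SE 0.21) had an edgeR adjusted p of 0.131. These comparisons share the co-expression libraries of a day and are not independent of each other.

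The ATF3 calls depended on single libraries. On day 3 against AF4-MLL cells the call was lost without AF4-MLL replicate 1, 2 or 3 (edgeR adjusted p = 0.0974, 0.0765 and 0.148) and without co-expression replicate 2 or 3 (0.0901 and 0.241), and was kept without co-expression replicate 1 (0.0245). On day 28 against MLL-AF4 cells it was lost without any of the 6 libraries: the adjusted p was 0.0851, 0.110 and 0.188 without MLL-AF4 replicates 1 to 3, and 0.0867, 0.112 and 0.180 without co-expression replicates 1 to 3. Against AF4-MLL cells on day 28 it was lost only without AF4-MLL replicate 3 (log2 difference −0.63, edgeR adjusted p = 0.118). The sign was negative in 17 of 17 alternative settings for each of the 3 comparisons, and the call was kept in 7, 6 and 14 of them. DESeq2's Wald test called none of the 3 (adjusted p = 0.447, 0.338 and 0.132).

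Genes beside ATF3 on chromosome 1 were lower in co-expression cells as well. Over the 40 nearest tested genes, 20 on each side, the median log2 difference was −0.29 against AF4-MLL cells on day 3, −0.37 against MLL-AF4 cells on day 28 and −0.44 against AF4-MLL cells on day 28, while the median of chromosome 1 was between −0.05 and −0.02. ATF3 was below 33, 34 and 33 of its 40 neighbours. When each gene was scaled to its neighbours, an alternative chosen after these values were seen, the 3 differences of ATF3 became −0.33, −0.37 and −0.35 (edgeR adjusted p = 0.647, 0.589 and 0.636) and the call was lost in each. Against MLL-AF4 cells on day 3, where ATF3 was not called, the neighbours had a median of −0.48 and ATF3 was below 26 of the 40. Scaled to them it was −0.16 there (edgeR adjusted p = 0.866). The DNA copy number of the stretch was not measured, and its part in the difference at ATF3 was not tested. PTPRC, the leukocyte antigen CD45 and also on chromosome 1, was the 1 of 6 tested markers of other cell types called in any comparison. Co-expression libraries of day 28 held 7.92 ± 1.04 CPM of it and AF4-MLL libraries 18.6 ± 5.36 CPM, a log2 difference of −1.22 (SE 0.29, edgeR adjusted p = 0.00627), in the comparison where ATF3 and ATF4 were called. Its neighbours had a median of −0.45, and scaled to them it was −0.79 (edgeR adjusted p = 0.376). The call was kept in 12 of 17 alternatives and lost without AF4-MLL replicate 1 or 2 or co-expression replicate 2 (0.0733, 0.0567 and 0.0748), and its part in the member differences was not tested. Day 28 against day 3, ATF3 gave −0.02 in MLL-AF4 cells (95% interval −0.40 to 0.37), −0.02 in AF4-MLL cells (−0.35 to 0.31) and −0.11 in co-expression cells (−0.51 to 0.30).

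**Figure D2:**
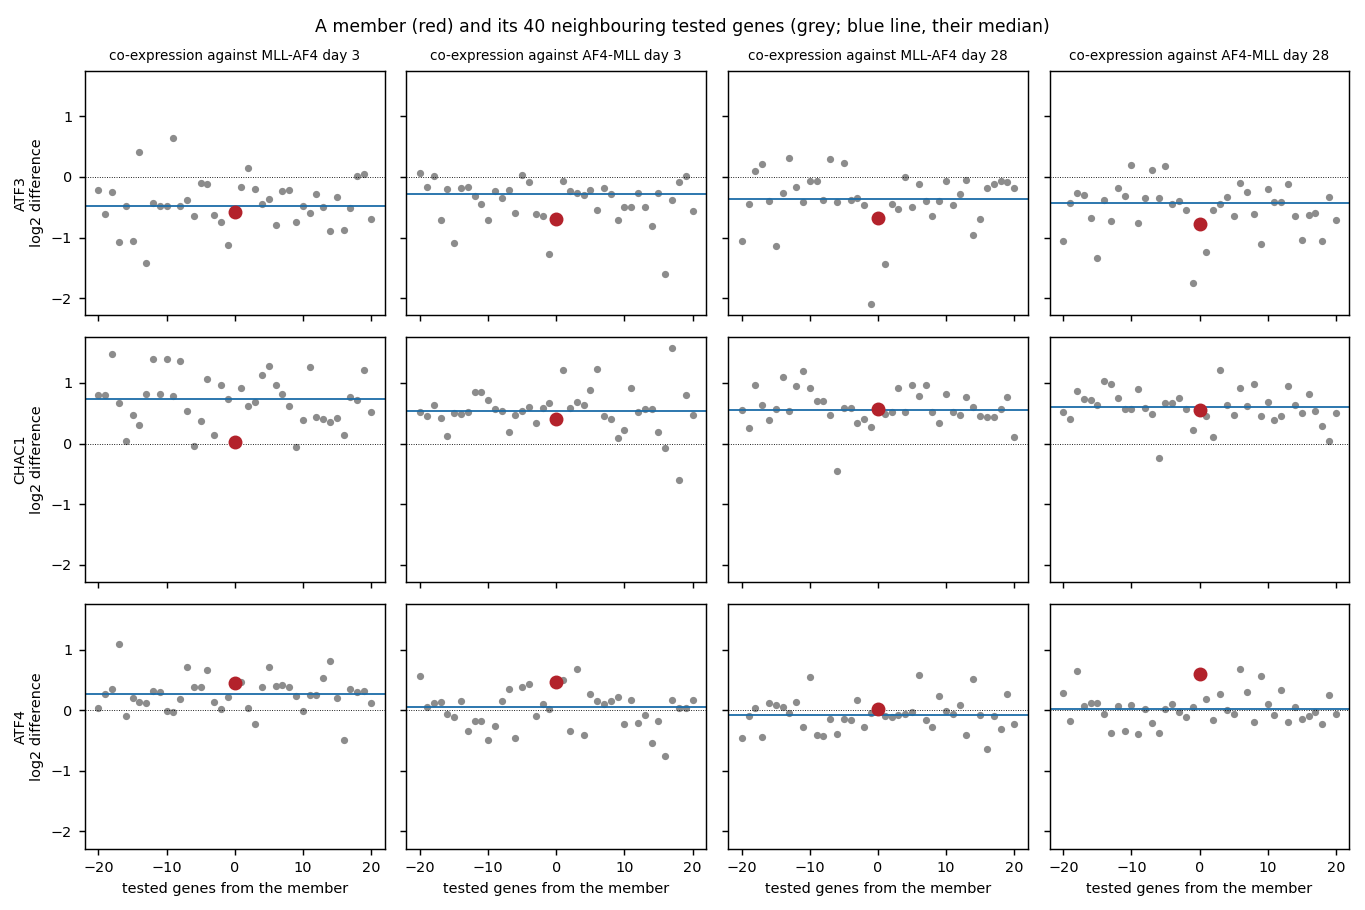
Log2 difference of ATF3, CHAC1 and ATF4 (red) and of the 40 nearest tested genes on the same chromosome (grey), by their order along the chromosome with the member at 0, in the 4 comparisons of co-expression cells with single-fusion cells; the blue line is the median of the 40. The neighbours of ATF3 lie mostly below 0 (medians −0.48 to −0.29), those of CHAC1 above 0 (0.54 to 0.73), and those of ATF4 near 0 in 3 of 4 panels (−0.09 to 0.05).

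ATF4 had its highest level in co-expression cells on day 3 and its lowest in AF4-MLL cells on day 28. The gene lies on chromosome 22 at 39520559 to 39522686. On day 3 the co-expression libraries held 51.3, 58.9 and 52.6 CPM, the AF4-MLL libraries 40.004, 36.2 and 40.1 CPM and the MLL-AF4 libraries 51.3, 27.9 and 38.1 CPM. Co-expression cells were above AF4-MLL cells without overlap, whereas the highest MLL-AF4 library reached the lowest co-expression library. On day 28 the values were 47.9, 46.1 and 57.2 CPM in co-expression cells, 31.3, 30.9 and 35.6 CPM in AF4-MLL cells and 58.5, 43.0 and 44.8 CPM in MLL-AF4 cells. AF4-MLL cells were then below the 6 other libraries, which overlapped each other.

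The day 28 difference between co-expression and AF4-MLL cells, 0.59 (SE 0.16, 95% interval 0.27 to 0.91), was called (edgeR adjusted p = 0.0296), a fold of 1.51. The call was lost without AF4-MLL replicate 1 or 2 (0.0894 and 0.149) and without co-expression replicate 1, 2 or 3 (0.116, 0.0639 and 0.0952), and kept without AF4-MLL replicate 3 (0.0446). Its neighbours on chromosome 22 had a median of 0.01, and scaling to them left the difference at 0.59, with an unadjusted p of 0.000471 and an edgeR adjusted p of 0.138. Of 17 alternatives 17 kept the positive sign and 7 the call, and DESeq2's Wald test did not call it (adjusted p = 0.316). AF4-MLL cells were also below MLL-AF4 cells on day 28, at −0.57 (SE 0.16) with no overlap, but the edgeR adjusted p was 0.215. On day 3 the co-expression differences were 0.46 against AF4-MLL cells (SE 0.16, edgeR adjusted p = 0.143) and 0.45 against MLL-AF4 cells (SE 0.18, edgeR adjusted p = 0.184), and in the latter the neighbours had a median of 0.26. The change from day 3 to day 28 was 0.28 in MLL-AF4, −0.28 in AF4-MLL and −0.14 in co-expression cells, and none was called.

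DDIT3, which encodes the pro-apoptotic factor CHOP, had 3 to 21 counts per library and showed no difference that these counts could resolve. Group means ran from 7.37 ± 2.95 CPM in co-expression cells on day 28 to 9.37 ± 0.866 CPM in MLL-AF4 cells on day 28. The 95% intervals were wide, for example −0.84 to 0.50 for co-expression against AF4-MLL cells on day 28. DDIT3 lies within a stretch of chromosome 12 that MARS1 and MIR616 overlap, and reads from the overlap cannot be assigned to a gene by strand in this assay.

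TRIB3, a pseudokinase that dampens ATF4 activity, had group means from 14.8 ± 1.17 CPM (MLL-AF4, day 28) to 22.5 ± 0.948 CPM (AF4-MLL, day 3). Its 3 AF4-MLL libraries on day 3 (23.6, 21.7 and 22.3 CPM) were all above the co-expression libraries (21.3, 17.9 and 13.7 CPM), a difference of −0.37 (SE 0.24) that was not called (edgeR adjusted p = 0.564). DDIT4, an inhibitor of mTORC1 signalling also known as REDD1, had its highest levels on day 3 in co-expression cells (43.3 ± 3.39 CPM) and MLL-AF4 cells (42.7 ± 1.82 CPM). All 3 co-expression libraries on day 28 (35.3, 31.8 and 19.9 CPM) were below the 3 on day 3 (42.7, 47.0 and 40.3 CPM). That difference was −0.47 (SE 0.17, 95% interval −0.80 to −0.13), with an unadjusted p of 0.00669 and an edgeR adjusted p of 0.267, while its neighbours on chromosome 10 had a median of 0.02.

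SESN2, encoding sestrin 2, a leucine sensor that restrains mTORC1, had the largest positive day difference of the 9 members. In MLL-AF4 cells it went from 27.9, 19.0 and 12.7 CPM on day 3 to 36.3, 30.7 and 33.1 CPM on day 28. All 3 later libraries were above all 3 earlier ones, and the log2 difference was 0.72 (SE 0.24, edgeR adjusted p = 0.0771), with neighbours on chromosome 1 at a median of 0.14. The sign turned when libraries were scaled by their size alone (−0.15) or chromosome by chromosome (−0.22), and stayed positive in the other 15 of 17 alternatives. Without MLL-AF4 day 3 replicate 1 it passed the threshold, at 1.06 (edgeR adjusted p = 0.0412), and without day 3 replicate 3 it was 0.47 (0.434). In AF4-MLL cells the same difference was 0.04 (95% interval −0.40 to 0.47) and in co-expression cells 0.25 (−0.15 to 0.65). The direct test of the day change between AF4-MLL and MLL-AF4 cells gave −0.69 (SE 0.33, unadjusted p = 0.0391, edgeR adjusted p = 0.480).

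ASNS, which makes asparagine from aspartate and is a classic target of the amino acid response, moved the other way in MLL-AF4 cells. Its libraries held 27.9, 24.1 and 20.8 CPM on day 3 and 14.8, 12.8 and 16.1 CPM on day 28, without overlap. The difference of −0.76 (SE 0.27, 95% interval −1.30 to −0.22) was the largest of any member over time but was not called (edgeR adjusted p = 0.117). All 40 of its neighbours on chromosome 7 lay above it, with a median of 0.04. In AF4-MLL and co-expression cells the day difference was −0.18 (SE 0.23) and −0.21 (SE 0.23). The ASNS locus overlaps other RefSeq entries, and counts at its processed copies were low (0 to 13 per library).

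PSAT1, an enzyme of serine synthesis, had 5 to 29 counts per library and group means of 8.27 ± 1.38 to 12.5 ± 1.37 CPM. On day 28 it was higher in co-expression than in MLL-AF4 cells by 0.64 (SE 0.32), with overlapping groups, an unadjusted p of 0.0472 and an edgeR adjusted p of 0.414. Its AF4-MLL libraries on day 3 spread from 6.17 to 20.2 CPM, on 8 to 17 counts.

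CHAC1, which degrades glutathione, had a higher mean in co-expression cells than in AF4-MLL cells (days 3 and 28) and MLL-AF4 cells (day 28), but was not called. On day 3 it held 30.7, 40.3 and 34.2 CPM in co-expression cells, 26.3, 21.7 and 29.3 CPM in AF4-MLL cells and 27.9, 31.7 and 42.8 CPM in MLL-AF4 cells. On day 28 it held 38.5, 41.1 and 21.3 CPM in co-expression cells, 25.4, 22.7 and 26.5 CPM in AF4-MLL cells and 27.2, 24.0 and 22.4 CPM in MLL-AF4 cells. Replicates 1 and 2 of the day 28 co-expression libraries stood above all single-fusion libraries of that day, and replicate 3 was below all of them. The differences from AF4-MLL cells were 0.40 on day 3 and 0.55 on day 28, and from MLL-AF4 cells 0.03 and 0.57, with edgeR adjusted p-values of 0.384, 0.103, 0.968 and 0.128. Without co-expression day 28 replicate 3 the difference from AF4-MLL cells was called, at 0.68 (edgeR adjusted p = 0.0398).

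The stretch of chromosome 15 around CHAC1 was higher in co-expression cells too. Its 40 neighbours had medians of 0.54 and 0.60 against AF4-MLL cells on days 3 and 28, and of 0.73 and 0.56 against MLL-AF4 cells, and the median over all 549 tested genes of the chromosome was 0.30 to 0.34 in these 4 comparisons. Relative to those neighbours CHAC1 was not higher. Scaling to them gave −0.17 and −0.10 against AF4-MLL cells on days 3 and 28 and −0.65 and −0.05 against MLL-AF4 cells on days 3 and 28. The value of −0.65 (SE 0.21), from 0.03 before scaling, had an unadjusted p of 0.00241 and an edgeR adjusted p of 0.229. In MLL-AF4 cells CHAC1 was lower on day 28 than on day 3 without overlap, by −0.48 (SE 0.22, edgeR adjusted p = 0.259).

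**Figure D3:**
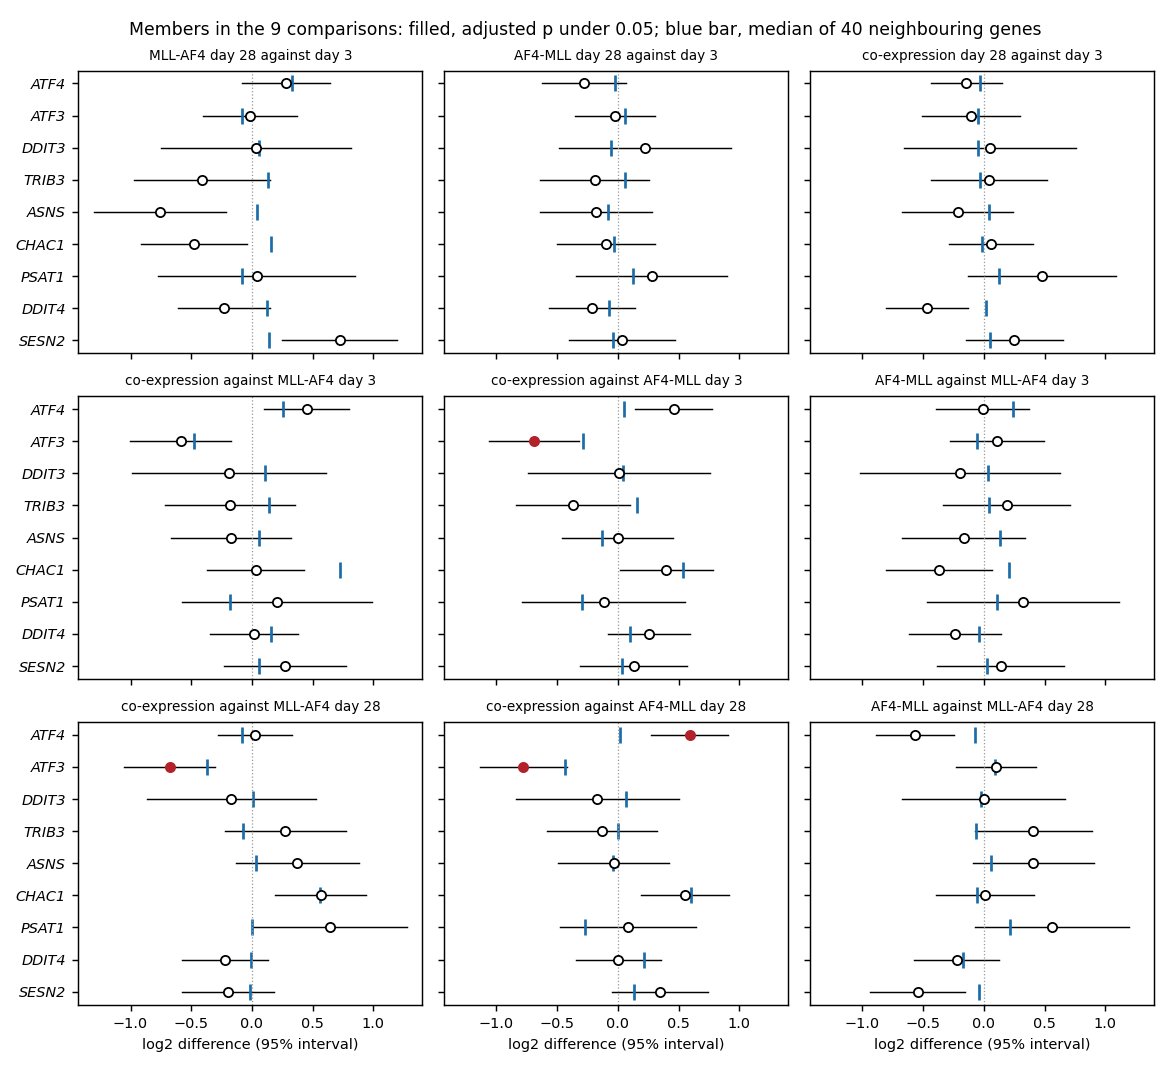
Log2 difference of each of the 9 members in the 9 comparisons, with its 95% interval; filled red circles have an edgeR adjusted p under 0.05 and the blue bar is the median of the neighbouring tested genes (25 for TRIB3, 40 for the others). Of 81 circles 4 are filled, ATF3 in 3 comparisons and ATF4 in 1, and the median of the 9 members lies between −0.10 and 0.04 in every panel. By comparison 0.0793% to 2.87% of all tested genes were called, and the comparisons share libraries.

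As a group the 9 genes did not move in 1 direction. Over time, edgeR called 0 of 9 in MLL-AF4 cells (background 2.87%), with 3 at an unadjusted p under 0.05 (SESN2 higher, ASNS and CHAC1 lower; background 15.8%) and a member median of −0.02 against 0.00 for all genes. In that comparison the groups did not overlap for 4 of 9 members, against 20.4% of tested genes. AF4-MLL cells gave 0 of 9 over time (background 0.606%), with 0 at an unadjusted p under 0.05 (background 9.29%), ATF4 alone without overlap (14%) and a median of −0.10. Co-expression cells likewise gave 0 of 9 (background 0.606%), with DDIT4 alone at an unadjusted p under 0.05 (9.51%) and without overlap (14.2%), and a median of 0.04. DESeq2's Wald test called 0 members in each of the 3, with 2 (ASNS, SESN2), 0 and 1 (DDIT4) at an unadjusted p under 0.05, and gave no adjusted p for 5, 4 and 2 members. Day and mitochondrial share moved together, and scaling by library size alone moved the all-gene median to −0.87, −1.06 and −1.07 and called 6, 9 and 8 members.

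Between settings the members also split between both directions. For co-expression against MLL-AF4 cells on day 3 edgeR called 0 of 9 (background 1.81%), with ATF4 and ATF3 at an unadjusted p under 0.05 (14.5%) and ATF3 alone without overlap (19%), and 5 members had a positive and 4 a negative difference. Against AF4-MLL cells on day 3 the groups did not overlap for 4 of 9 members (ATF4 and CHAC1 higher, ATF3 and TRIB3 lower), where 16.5% of tested genes did so, and 3 members had an unadjusted p under 0.05 (12.3%). On day 28 the counts without overlap were 1 against MLL-AF4 cells (16%) and 2 against AF4-MLL cells (16.8%), and 3 members in each had an unadjusted p under 0.05 (11.8% and 12.7%). AF4-MLL against MLL-AF4 cells gave 0 of 9 on day 3 in edgeR (background 0.142%), with 0 at an unadjusted p under 0.05 (9.55%) and 0 without overlap (14%). On day 28 it gave 0 of 9 (background 0.0793%), with ATF4 and SESN2, both lower in AF4-MLL cells, at an unadjusted p under 0.05 (8.26%). There 4 of 9 members did not overlap (ATF4 and DDIT4 lower, ASNS and PSAT1 higher; background 13.4%). DESeq2 called 0 members in these and in all 12 contrasts. In co-expression against MLL-AF4 cells on day 3 it gave no adjusted p for 2 members, which count as not called. At an unadjusted p under 0.05 DESeq2 had 2 and 2 for co-expression against MLL-AF4 and AF4-MLL cells on day 3 and 2 and 3 on day 28. For AF4-MLL against MLL-AF4 cells it had 0 and 2 on days 3 and 28.

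No member was called for a day change that differed between settings. The 3 interaction tests called 0 of 9 in edgeR (backgrounds 0.232% for co-expression set against MLL-AF4 cells, 0% for co-expression set against AF4-MLL cells and 0.317% for the single fusions), with 0, 0 and 2 at an unadjusted p under 0.05 (9.73%, 5.05% and 9.75%), and 0 members at that level in DESeq2. The 2 were SESN2 and ATF4, whose day change in AF4-MLL cells was lower than in MLL-AF4 cells by −0.56 (SE 0.25, edgeR adjusted p = 0.445). Under selection by an unadjusted p under 0.05, an absolute log2 difference over 1 and a mean count over 2, the thresholds applied to the ATAC-seq data of the study, 0 of 9 members passed in each of the 12 contrasts. Of all tested genes 2.54%, 1.14% and 1.19% passed over time in MLL-AF4, AF4-MLL and co-expression cells. Between settings the share was 2.79%, 1.79% and 1.51% on day 3 and 1.29%, 1.36% and 0.544% on day 28 (co-expression against MLL-AF4, then against AF4-MLL, then between the single fusions), and in the interactions, in the order above, 3.35%, 1.52% and 3.39%.

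Levels of the 9 genes over the 18 libraries were compared pair by pair. Among 36 pairs, 23 had a positive Pearson correlation of log2 CPM, from −0.60 to 0.53 with a median of 0.11. For deviations from group means 27 of the 36 were positive, from −0.58 to 0.71 with a median of 0.17. Values for pairs of other genes are not given here. These libraries share their groups, depth and scaling, so the values are descriptive. The genes most like ATF3 over the libraries were DUSP2 (r = 0.93), TMEM107 (0.90) and SREBF1 (0.89), and those most like ATF4 were PNP (0.82), NIPA1 (0.79) and METTL23 (0.79). None of the 6 lies on the chromosome of the member it resembled.

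A single library stood apart within its group for most members. Co-expression day 28 replicate 3, with 376209 nuclear counts the shallowest of its group, held the lowest value of its group for 8 of 9 members and the highest for the remaining 1, ATF4. Over all tested genes the same library was the lowest of its group for 38.3% and the highest for 36.2%. Without it the day 28 difference of ATF3 from AF4-MLL cells was −0.66 (edgeR adjusted p = 0.0496) and that of DDIT4 between the days was −0.36 (edgeR adjusted p = 0.523).

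The rest of the pathway was followed in 6 lists with 74 genes, of which 73 were in the table and 70 were tested. They held the eIF2 kinases with eIF2, eIF2B and the phosphatase subunits, bZIP partners, enzymes of serine and one-carbon synthesis, amino acid transporters, aminoacyl-tRNA synthetases, and secreted or other outputs. Over time edgeR called EIF2S1 and JUN in MLL-AF4 cells (2 of 70, background 2.87%), SLC7A1 in AF4-MLL cells (1 of 70, background 0.606%) and PPP1R15A in co-expression cells (1 of 70, background 0.606%). PPP1R15A was also the 1 of 70 called in co-expression against MLL-AF4 cells on day 3 (background 1.81%). At an unadjusted edgeR p under 0.05 there were 8 higher and 7 lower over time in MLL-AF4 cells (background 15.8%). AF4-MLL cells had 3 higher and 4 lower (9.29%) and co-expression cells 2 and 3 (9.51%). Co-expression against MLL-AF4 cells on day 3 had 6 higher and 1 lower (14.5%). The other 5 comparisons had 0 edgeR calls among the 70, with 4 (co-expression against AF4-MLL, background 12.3%) and 3 (AF4-MLL against MLL-AF4, 9.55%) at an unadjusted p under 0.05 on day 3. On day 28 there were 4, 7 and 9 (co-expression against MLL-AF4 and AF4-MLL cells, and between the single fusions, with backgrounds of 11.8%, 12.7% and 8.26%). The 3 interactions had 0 calls, with 9, 4 and 11 at that level (9.73%, 5.05% and 9.75%). DESeq2 called JUN and both PPP1R15A differences and nothing else, and in the 5 comparisons it had 4, 1, 4, 4 and 6 genes at an unadjusted p under 0.05. It gave no adjusted p for 48, 26 and 7 of the 70 over time in MLL-AF4, AF4-MLL and co-expression cells. The same held for 13 in co-expression against MLL-AF4 cells on day 3 and 1 in each co-expression comparison of day 28. A gene without an adjusted p counts as not called. The enzymes of serine and one-carbon synthesis (14 tested) and the tRNA synthetases (13 tested) had no edgeR call in any contrast and 0 to 1 and 0 to 3 genes at an unadjusted p under 0.05, and their medians over time lay between −0.09 and 0.08.

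PPP1R15A had the lowest adjusted p of the 70 genes. It encodes GADD34, the stress-induced subunit that brings a phosphatase to eIF2 and ends the response. On day 3 it held 46.7, 37.3 and 38.3 CPM in co-expression cells, 31.2, 31.8 and 33.1 CPM in AF4-MLL cells and 13.4, 25.4 and 13.9 CPM in MLL-AF4 cells. The 3 groups were fully separated in that order. On day 28 the values were 19.3, 20.5 and 19.9 CPM in co-expression cells, 29.3, 16.6 and 23.7 CPM in AF4-MLL cells and 11.5, 27.3 and 20.6 CPM in MLL-AF4 cells, and the groups overlapped.

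The day 3 difference of PPP1R15A between co-expression and MLL-AF4 cells was 1.24 (SE 0.24, edgeR adjusted p = 0.000372), and the fall in co-expression cells from day 3 to day 28 was −1.04 (SE 0.20, edgeR adjusted p = 8.41e-05). Both were called in 17 of 17 alternatives, those scaled to the neighbours on chromosome 19 included (1.01 and −1.04, edgeR adjusted p = 0.0296 and 0.000139), and their ranges were 1.01 to 1.58 and −2.10 to −0.93. The 2 comparisons share the co-expression libraries of day 3. The day change was −0.48 in AF4-MLL cells (SE 0.20, edgeR adjusted p = 0.395) and 0.26 in MLL-AF4 cells (SE 0.28, edgeR adjusted p = 0.702), neither called. The interaction tests did not call PPP1R15A for a day change that differed between settings. On day 3 AF4-MLL exceeded MLL-AF4 cells by 0.89 (SE 0.26, edgeR adjusted p = 0.148) and co-expression exceeded AF4-MLL cells by 0.35 (SE 0.18, edgeR adjusted p = 0.427), neither of them called.

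JUN, a bZIP partner, was lower on day 28 than on day 3 in MLL-AF4 cells, with 124, 138 and 137 CPM against 184, 190 and 192 CPM, a difference of −0.50 (SE 0.12, edgeR adjusted p = 0.00328). In AF4-MLL and co-expression cells it was −0.38 (SE 0.11) and −0.33 (SE 0.11), with edgeR adjusted p-values of 0.0825 and 0.158. The interaction tests did not call JUN for a day change that differed between settings. EIF2S1, the eIF2 subunit that the stress kinases phosphorylate, was higher on day 28 in MLL-AF4 cells by 0.83 (SE 0.25, edgeR adjusted p = 0.0409). That call was lost without MLL-AF4 day 28 replicate 1 or 2 (0.0941 and 0.212) and without day 3 replicate 1, 2 or 3 (0.199, 0.111 and 0.0995), scaling by library size alone turned the sign (−0.06), and it was kept in 9 of 17 alternatives. SLC7A1, a carrier of cationic amino acids, was higher on day 28 in AF4-MLL cells by 0.97 (SE 0.26, edgeR adjusted p = 0.0456), and its call was lost without day 28 replicate 2 or 3 (0.388 and 0.159) and without day 3 replicate 1 (0.655), where the difference was 0.59. It was kept in 7 of 17 alternatives, scaling to its neighbours on chromosome 13 lost it (0.82, edgeR adjusted p = 0.142), and scaling by library size alone turned the sign (−0.11).

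**Figure D4:**
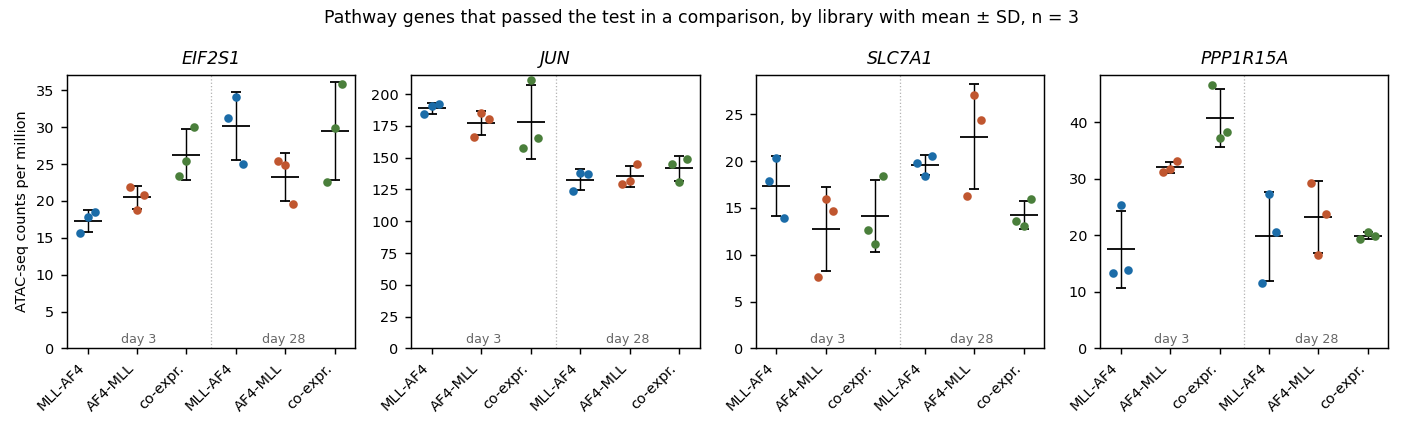
ATAC-seq CPM of the 4 other pathway genes that were called in at least 1 comparison, in each of the 18 libraries, drawn as in the plot of the 9 members. PPP1R15A runs from 17.5 ± 6.78 CPM in MLL-AF4 cells to 40.7 ± 5.15 CPM in co-expression cells on day 3 and its groups overlap on day 28. JUN is lower on day 28 in each setting, called in MLL-AF4 cells only. The interaction tests called neither gene for a day change that differed between settings.

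Genes of the ER chaperone arm, which ATF6 and XBP1 rather than ATF4 chiefly drive, were set beside the members as a comparison. This list was written with earlier results of these data known, and its counts are not independent evidence of a direction. Of 13 tested, 2, 2 and 1 were called lower on day 28 in MLL-AF4, AF4-MLL and co-expression cells and 0 higher (backgrounds 2.87%, 0.606% and 0.606%, either direction), with medians of −0.20, −0.43 and −0.18, where the 9 ATF4 members had medians of −0.02, −0.10 and 0.04. HSPA5, the chaperone BiP, was called in all 3 (−0.49, −1.03 and −1.08, edgeR adjusted p = 0.0456, 5.45e-12 and 7.44e-13), and the calls were kept in 7, 17 and 17 of 17 alternatives. The first of them was lost without any of the MLL-AF4 libraries but day 3 replicate 3. PDIA4, a protein disulfide isomerase, was the other gene called in MLL-AF4 cells (−0.60, edgeR adjusted p = 0.0293), kept in 8 of 17 alternatives and lost without any of its libraries but day 28 replicate 3. SDF2L1, which works with BiP, was the other in AF4-MLL cells (−0.71, edgeR adjusted p = 0.0119), kept in 12 of 17 and lost without day 28 replicate 1 or 2 or day 3 replicate 1 or 3.

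Between settings the same list was called in both directions. In co-expression against MLL-AF4 cells on day 3 HSPA5 was higher (0.44, edgeR adjusted p = 0.0479) and CRELD2, an ER protein induced by stress, was lower (−1.01, edgeR adjusted p = 0.000965), 2 of 13 against a background of 1.81%. The HSPA5 call was kept in 4 of 17 alternatives and lost without MLL-AF4 or co-expression replicate 1 or 3, and the CRELD2 call was kept in 17. CRELD2 was also the 1 of 13 called, and lower, against AF4-MLL cells on day 3 (−1.13, edgeR adjusted p = 9.06e-06, background 1.28%) and on day 28 (−0.66, edgeR adjusted p = 0.0176, background 1.69%), kept in 17 and 10 of 17 alternatives. The day 28 call was lost without AF4-MLL replicate 2 or co-expression replicate 2 or 3, and scaled to its neighbours on chromosome 22, whose median was −0.46, CRELD2 was there −0.32 (edgeR adjusted p = 0.657). On day 3 its neighbours had a median of −0.45 against AF4-MLL and −0.19 against MLL-AF4 cells. Scaled to them CRELD2 was −0.77 and −0.96 (edgeR adjusted p = 0.0331 and 0.00879). The other 3 of the 9 comparisons had 0 of 13 called in edgeR, with 5 (AF4-MLL against MLL-AF4, day 3), 5 (co-expression against MLL-AF4, day 28) and 0 (AF4-MLL against MLL-AF4, day 28) at an unadjusted p under 0.05 (9.55%, 11.8% and 8.26%), and DESeq2 called 0 in each, with 4, 2 and 0 at that level.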

How the data were processed

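ATAC-seq was run on 18 libraries of HEK293T cells in 6 groups of 3, set by genotype and day. The authors deposited raw counts per gene, 1 whole number for each of 54425 genes and each library. The submitters' processing notes name bcl2fastq, Bowtie2, HTSeq and GRCh38 without versions. The region counted for each gene, the handling of duplicate and multiply mapped reads and any shift to the insertion site are not given in the sources used here. These choices set the levels, so levels were not compared between genes. Of the gene entries, 116 merge several identifiers that share a symbol.

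The test was edgeR's (version 4.0.16, under R 4.3.3) on all 18 libraries (6 groups, TMM scaling, filterByExpr with minimum count 10 and minimum total 15, two-sided quasi-likelihood F tests in 12 contrasts, Benjamini-Hochberg adjustment over all 17660 tested genes). CPM used TMM-scaled library sizes. The biological coefficient of variation was 7.48%. Pairs of libraries within a group were checked for duplicates, and none were identical. Their counts differed by more than sampling noise (chi-square per degree of freedom 1.06 to 1.46). Alternatives were other scalings, filters, samples, a replicate block, each library left out and DESeq2 1.42.0. The pipeline was also run on simulated data, with changes placed only in co-expression libraries of day 28. Its outcome is not given here and is no support for the calls above. One gene of the markers of other cell types is not reported here. The members and all gene lists were chosen with earlier results of these data known. The naming rule covered the 9 members in every contrast, given by counts and medians where they are not named, every list gene that was called, and for each called member the 3 genes with the most similar profile. Promoters and gene positions came from RefSeq tables of GRCh38.p14. Chromosome neighbours used the 15488 tested genes with a RefSeq position.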

Additional observations from a re-analysis of the deposited data

How the results depend on the processing

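The counts of members called per contrast and the differences of the genes named were recomputed under 11 other settings and with each library of the contrast left out. Library size as the only scaling moved the median of all genes by −0.87, −1.06 and −1.07 (log2) in the day comparisons of MLL-AF4, AF4-MLL and co-expression cells, and called 6, 9 and 8 members there. It called 0 in co-expression against AF4-MLL cells on day 3, 0 against MLL-AF4 cells on day 28 and 1 against AF4-MLL cells on day 28, and reversed SESN2 (−0.15) and EIF2S1 (−0.060) in MLL-AF4 cells over time and SLC7A1 (−0.11) in AF4-MLL cells. Chromosome-wise scaling called 1, 2 and 2 members over time, 0 against AF4-MLL cells on day 3 and 1 on day 28, and reversed SESN2 (−0.22). The members it called over time were ATF3 and SESN2 of chromosome 1, where 7 pseudogenes of mitochondrial genes took 26.7% to 36.0% of the tested counts on day 3 and 48.1% to 51.6% on day 28. Scaling to neighbouring genes, chosen after seeing the data, called 0, 0 and 0 members in co-expression against AF4-MLL cells on day 3, MLL-AF4 cells on day 28 and AF4-MLL cells on day 28, and reversed CHAC1 (−0.17, −0.052 and −0.10). In the same 3 comparisons DESeq2's Wald test gave 0, 0 and 0 and no filter on low counts gave 0, 0 and 1; the cause was not tested. DESeq2's size factors, nuclear genes only, a loess offset, a mean count of at least 10 and fits to only the groups compared left every count of members as it was. Over all genes the calls in these 3 comparisons were 226, 206 and 299. They were 87, 100 and 81 under library size alone, 108, 76 and 119 under chromosome-wise scaling, 39, 32 and 26 under scaling to neighbours, 29, 20 and 38 under DESeq2 and 107, 103 and 123 without the filter. Over time they were 506, 107 and 107, against 11457, 15485 and 15566 under library size alone, 1317, 1576 and 1656 under chromosome-wise scaling, 275, 62 and 66 under DESeq2, and 62 and 51 (AF4-MLL and co-expression) with nuclear genes only; in MLL-AF4 cells they were 182 under scaling to neighbours and 248 without the filter. Without 1 library, the counts of members ranged from 0 to 1 (MLL-AF4 over time), 0 to 1 (co-expression against AF4-MLL, day 3), 0 to 0 (against MLL-AF4, day 28) and 1 to 2 (against AF4-MLL, day 28).

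Samples with the same replicate number did not deviate together (correlations from −0.05 to 0.02 in all 9 comparisons), and in no comparison did every number correlate best with itself. The check thus found no pairing by number. It could not exclude one, because counts within a group differed little beyond sampling noise. With the replicate number as a block, ATF3 in co-expression against MLL-AF4 cells on day 28 was −0.68 with an edgeR adjusted p of 0.0524, which left 0 members called there, and SLC7A1 in AF4-MLL cells over time had an edgeR adjusted p of 0.0732 and HSPA5 in co-expression against MLL-AF4 cells on day 3 one of 0.0528; the block changed no other call named here. At 3 to 102 counts per member and library, the SE of a member's log2 difference ran from 0.15 (ATF4) to 0.42 (DDIT3) over the 9 comparisons, so small differences could not be resolved.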
